A study of Mus musculus with 2 samples.

Results

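GATA4 binding between the promoters of neighbouring genes that are transcribed away from each other was described in whole liver of the healthy adult mouse, as the labels give it. The factor was mapped by ChIP-seq, in which DNA bound to a protein is pulled down with an antibody and sequenced. A peak summit of the authors' optimal list was counted when it lay between the transcription start sites of 2 protein-coding genes on opposite strands, or within 200 bp of either site. The minus-strand gene had to start upstream of the plus-strand gene, and the 2 start sites had to lie at most 1 kb apart. Of 24050 summits on chromosomes 1 to 19 and X, 368 met this rule, or 1.53%. The rule used position alone and no measured value beyond the presence of a peak. The series held 1 group of 2 samples, labelled biological replicates 1 and 2, with neither treatment nor genotype in the labels. Both carried the same tissue and donor identifiers, and their spread may therefore be technical. Beyond the adult stage, age and sex of the donor are not given, whole liver mixes hepatocytes with endothelial and other cells, and the read depth behind the lists is unknown.

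GATA4 is a zinc-finger transcription factor that recognises the core GATA, and in liver it is known from development and from the sinusoidal endothelium. Divergent promoters are short stretches of DNA, mostly rich in CpG, from which a pair of genes is transcribed in opposite directions, and they often serve genes that every cell uses. Factors such as ETS proteins, SP1, NRF1, NFY and YY1 are known for sites in such promoters.

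The first 9 sequences below are shown because they hold GATA motifs at or near the summits described later. A GATA motif here is AGATAA on either strand, where the first base may also be T and the last base may also be G. Capitals mark every such motif, and a motif on the minus strand is read in reverse complement, so that AGATAA appears as TTATCT. All are plus-strand GRCm38.p6 (mm10) sequence. The first 3 are whole spans between the 2 start sites that hold no annotated exon, with the minus-strand gene to the left.
Abcg5/Abcg8 (chr17:84683012-84683120): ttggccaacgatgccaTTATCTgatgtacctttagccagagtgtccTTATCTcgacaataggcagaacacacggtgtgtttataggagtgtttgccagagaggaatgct
Npc2/Isca2 (chr12:84773153-84773250): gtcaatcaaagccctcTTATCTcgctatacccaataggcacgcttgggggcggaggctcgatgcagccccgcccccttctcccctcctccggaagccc
Zwilch/Rpl4 (chr9:64173105-64173374): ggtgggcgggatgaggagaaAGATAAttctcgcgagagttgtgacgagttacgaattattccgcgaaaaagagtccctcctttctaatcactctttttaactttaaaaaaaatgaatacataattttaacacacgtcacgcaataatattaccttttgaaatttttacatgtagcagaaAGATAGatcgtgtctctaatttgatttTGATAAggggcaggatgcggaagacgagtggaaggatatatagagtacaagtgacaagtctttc
The next 6 are 30-base windows around the motif nearest the summit of the optimal list. They come from pairs whose motif-bearing peak overlapped peaks in both replicates' lists, with Mrps12/Sars2, a textbook pair in replicate 2's list only, added. Replicate 1's own summit at Hnrnph3/Pbld2 had no GATA motif within 50 bp. In the Npc2/Isca2 span above the motif lies more than 50 bp from both summits, and the window below holds the motif near the stronger one.
Npc2/Isca2 (chr12:84773030-84773059): gcagctcgccctTTATCTccgcccatctct
Cops2/Galk2 (chr2:125859093-125859122): ctctccaggagaAGATAAagctcattccgg
Hnrnph3/Pbld2 (chr10:63024191-63024220): ttgctaagtttcTTATCTgctccactggga
A730061H03Rik/Dcaf11 (chr14:55560865-55560894): gttggttgtgtgAGATAAgctagtgaaatg
Slc30a7/Extl2 (chr3:116008381-116008410): gcatttcctaggTTATCAattggacgggca
Mrps12/Sars2 (chr7:28741737-28741766): gatctggatcacAGATAActgcacccacct
For contrast, the spans of 2 strong pairs hold no GATA motif. The first contains the palindrome TGACGTCA, the core of ATF sites, near its right end, and the second contains CCAAT in its minus-strand spelling ATTGG.
Sbds/Tyw1 (chr5:130255531-130255618): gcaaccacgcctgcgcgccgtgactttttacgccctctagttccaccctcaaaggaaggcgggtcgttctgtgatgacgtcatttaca
Fbxo24/Lrch4 (chr5:137629003-137629120): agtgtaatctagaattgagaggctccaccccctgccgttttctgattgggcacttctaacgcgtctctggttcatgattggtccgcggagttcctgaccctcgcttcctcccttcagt

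Most GATA4 peaks at divergent promoters lacked a GATA motif and were in replicate 2's list but not in replicate 1's. Other promoter peaks had like list shares, with 84.3% in replicate 2's list and 4.77% in replicate 1's, and 22.0% had the motif. The annotation held 1008 divergent gene pairs with 1976 genes, and 342 of the pairs (33.9%, 95% Wilson interval 31.1 to 36.9) had a summit. The summits were assigned to 335 pairs, of which 302 had 1 summit and 33 had 2. For 7 summits the span of more than 1 pair applied, and a pair enclosing the summit was preferred, then the one with the closer start sites. All intervals here are at the 95% level and cover counting error over peaks, pairs or genes, which are not replicates.

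The summits sat close to the genes. Between the 2 start sites lay 210 of them, while 72 lay on the side of the minus-strand gene and 86 on that of the plus-strand gene. Of those outside the start sites, 143 fell in an exon and 15 in an intron. A further 83 of the summits between start sites fell in an exon of another transcript. The nearest start site lay a median 44.0 bp away and at most 279 bp away, and 200 summits (54.3%) lay within 100 bp of the midpoint. The closest start sites of a pair were a median 118 bp apart in pairs with a summit and 138 bp in pairs without. A summit was present in 37.0% of pairs with start sites up to 100 bp apart (32.4 to 41.9), 35.6% at 101 to 200 bp (30.1 to 41.4), 28.6% at 201 to 500 bp (23.2 to 34.6) and 30.6% at 501 to 1000 bp (22.7 to 39.8), so neighbouring distance classes overlapped in their intervals. At the limits of the rule, 24 summits lay 151 to 200 bp beyond the start sites (8 with a GATA motif, median rank 12690) and 15 lay just outside at 201 to 250 bp (2 with the motif, median rank 17550). Start sites 901 to 1000 bp apart enclosed or flanked 11 counted summits, and sites beyond 1 kb and up to 1100 bp apart had 10 that were left out.

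**Figure D1:**
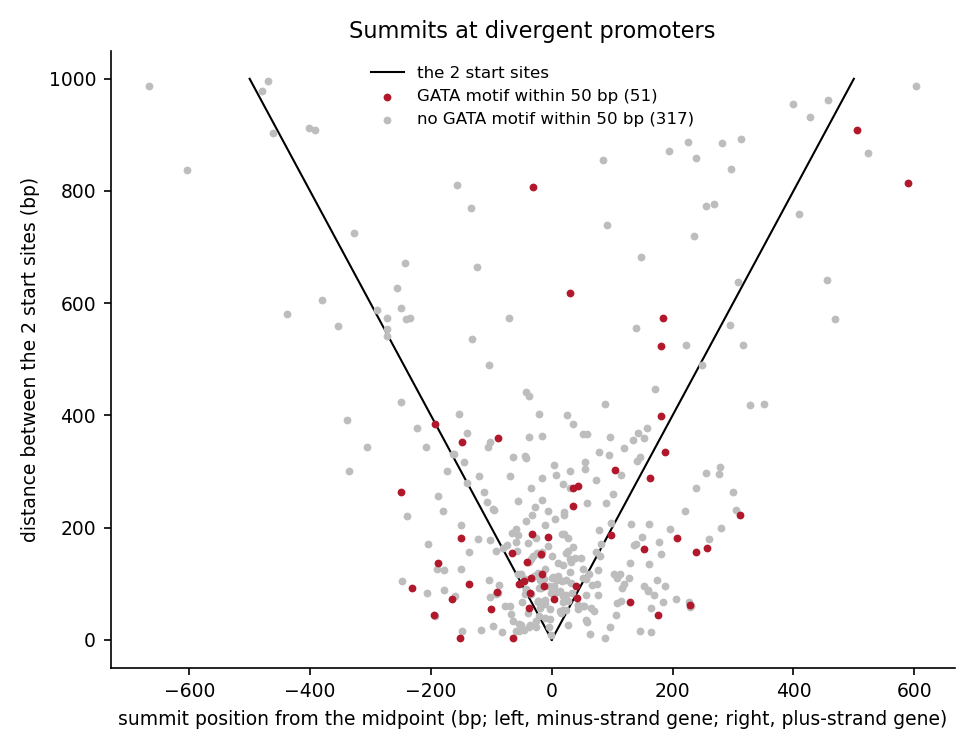
Position of the 368 divergent-promoter summits relative to the midpoint of the 2 start sites (x axis, bp) against the distance between these sites (y axis, bp), with the start sites as black lines and the 51 summits with a GATA motif within 50 bp in red. Most summits lie at closely spaced start sites, and those with the motif are spread among the rest, both between and beyond the start sites.

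Genes with a divergent partner had a summit at their start site more often than genes without. A summit lay within 200 bp of a start site in 586 of 1976 genes of divergent pairs (29.7%, 27.7 to 31.7), against 2950 of 19779 other protein-coding genes (14.9%, 14.4 to 15.4) and 16.3% of all protein-coding genes. The difference was 14.7 percentage points (Newcombe interval 12.7 to 16.9). Partners of a pair can share 1 summit, so the genes are not independent. Start sites of all pairs were a median 133 bp apart, so the 200 bp searched often also held the partner's start site. This may raise the share in divergent pairs, and its part in the difference was not tested. A gene counted as paired, and as having a summit, if any of its annotated start sites did. The number of start sites per gene was not matched, and its part was not tested either. CpG content differed between these gene sets. A CpG-rich start site had GC of at least 50% and an observed-to-expected CpG ratio of at least 0.6 within 250 bp. Such a site was present in 1742 of the 1976 divergent genes and in 10045 of the 19779 other genes. Among CpG-rich genes the shares were 32.3% in divergent pairs and 24.9% elsewhere, a difference of 7.37 points (5.06 to 9.76). Among the others they were 10.3% and 4.62%, a difference of 5.63 points (2.34 to 10.2). Pairs with a CpG-rich centre had a summit in 36.6% of cases (33.4 to 40.0), against 23.4% of pairs without (18.1 to 29.7).

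GATA motifs were less frequent at divergent promoters than at other promoters and far less frequent than away from promoters. Within 50 bp of the summit, 51 of 368 divergent-promoter summits had a GATA motif (13.9%, 10.7 to 17.8), against 897 of 4071 other summits within 500 bp of a protein-coding start site (22%, 20.8 to 23.3), 59.9% of the 19611 summits farther away, and 52.8% of the whole list. The difference from other promoter summits was -8.18 points (-11.6 to -4.08). With other promoter summits taken within 1 kb it was -12.8 points (-16.2 to -8.66). Divergent-promoter summits lay at most 279 bp from a start site and other promoter summits up to 500 bp. Distance was not matched, so its part in the difference cannot be told apart from that of the divergent arrangement. The strict form AGATAA stood at 5.71% of divergent-promoter summits, 10.4% of other promoter summits and 31.2% of those farther away. Of the 51 summits, 47 had 1 motif, 3 had 2 and 1 had 3, the last in Abcg5/Abcg8. The nearest motif was centred a median 14.5 bp from the summit and within 20 bp in 29 cases, with 27 on the plus and 24 on the minus strand.

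Base composition moved with the motif. GC content within 50 bp averaged 64.2 ± 8.15% at divergent-promoter summits, 63.1 ± 9.67% at other promoter summits and 48.8 ± 7.62% farther away (SD over summits), and the median observed-to-expected CpG ratios were 0.937, 0.827 and 0.227 in that order of groups. Below 50% GC, 45.0% of divergent-promoter summits and 55.1% of other promoter summits had a GATA motif. At 50 to 60% GC the shares were 23% and 35.5%, the only class of GC whose interval left out 0 (difference -21.2 to -1.37 points). At 60 to 70% GC they were 12.3% and 15.9%, and from 70% up 3.16% and 6.47%. The point estimate was thus below 0 in each of the 4 classes, with an interval that included 0 in 3 of them. A control motif (ATATGC with a first base of A or T) was likewise rarer at divergent-promoter summits, 0.815% against 2.51% at other promoters (difference -2.44 to -0.0761 points).

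Motifs of other factors were read in the same windows on both strands, 13 beside GATA, with intervals not adjusted for that number. The ETS core CCGGAA stood at 24.7% of divergent-promoter summits (20.6 to 29.4), against 17.3% of other promoter summits (16.2 to 18.5) and 3.69% farther away. Its difference from other promoters was 7.41 points (3.11 to 12.2), and within classes of GC the interval left out 0 below 50% GC (4 of 20 summits against 29 of 434) and at 50 to 60% (27.0% against 15.2%), and included 0 in the other 2. The NRF1 core GCGCANGCG stood at 8.70% against 6.02% (difference 0.0905 to 6.07 points), and its interval included 0 in every class of GC. CAGCTG, an E-box bound by TAL1, was rarer at divergent-promoter summits, 2.72% against 5.33% (difference -4.05 to -0.308). The SP core GGGCGG (35.9% against 33.2%), CCAAT of NFY (15.2% against 15.1%) and AANATGGC of YY1 (4.62% against 3.10%) gave differences whose intervals included 0. So did TGACGTCA of ATF, CTCGCGAG, ACTACAA of ZNF143, CACGTG of USF and MYC, and TATAAA. CAAAGTCCA, a core of the hepatocyte factor HNF4, was at 0 of 368 summits, which allows a share of up to 1.03% (Wilson), and at 0.270% of other promoter summits. In all, 239 of the 368 summits had a core of ETS, SP, NRF1, NFY or YY1 or the CTCGCGAG box. The like count at other promoter summits was not taken, so this count does not set these summits apart. A motif match describes the letters of the window and does not show that a factor was bound there.

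**Figure D2:**
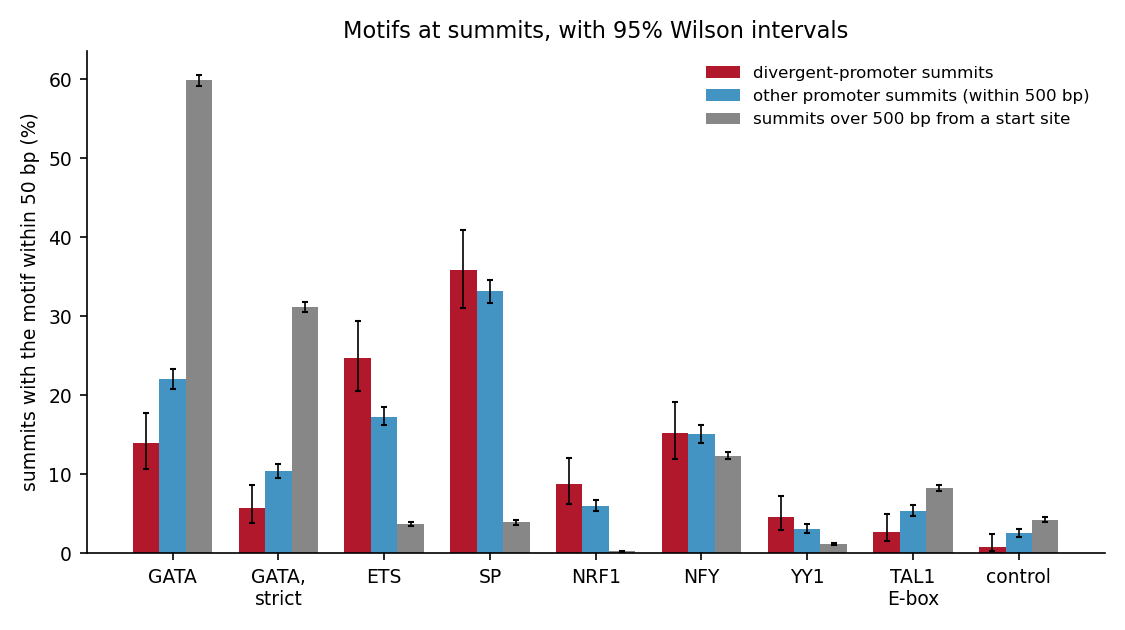
Share of summits with each motif within 50 bp (y axis, percent; bars from 0, lines are 95% Wilson intervals) at divergent-promoter summits, other promoter summits within 500 bp of a start site and summits farther away. GATA stands at 13.9%, 22% and 59.9% in these groups and ETS at 24.7%, 17.3% and 3.69%.

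Across the 1008 pairs themselves, a span centred on the midpoint (150 bp to each side) held a GATA motif in 18.1% of pairs with a summit, against 13.2% of pairs without, a difference of 4.92 points (0.268 to 9.94). ETS cores were present in 46.5% and 39.8% (difference 0.267 to 13.1) and YY1 cores in 16.4% and 11% (1.02 to 10.2). For SP (65.2% and 66.5%), NRF1 (18.4% and 18.6%) and NFY (43.0% and 41.9%) the intervals included 0. The control motif stood at 2.63% of pairs with a summit and 4.95% of pairs without (difference -4.61 to 0.366). These intervals were not adjusted for the number of motifs, and those of GATA and ETS came close to 0. Pairs with and without a summit were not matched on GC content here.

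By the authors' signal score, which has no unit and serves here only to rank peaks within a list, divergent-promoter peaks had a median rank of 14410 (quartiles 8646 and 19760), against 14733 for other promoter peaks and 11334 for peaks farther away. The best rank was 56 and the last 23992. When the list was cut into 5 equal parts by rank, the strongest part held 45 of them (12.2%) and the weakest 101 (27.4%). Other promoter peaks had like shares, 11.9% in the strongest part and 28.1% in the weakest. The 1000 strongest peaks held 8 divergent-promoter peaks and 100 of the 4071 other promoter peaks. These counts do not set divergent-promoter peaks apart from other promoter peaks. A GATA motif was present at 44.4% of divergent-promoter summits in the strongest part (30.9 to 58.8), then 23.4%, 9.21% and 8.54%, and at 1.98% in the weakest (0.545 to 6.93). Other promoter summits had 60.7% in the strongest part and 9.78% in the weakest, and summits farther away 78.2% and 40.9%. Divergent-promoter summits with the motif had a median rank of 6201 and a GC content of 58.0 ± 9.18%, against 15457 and 65.2 ± 7.53% for those without (SD over 51 and 317 summits).

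**Figure D3:**
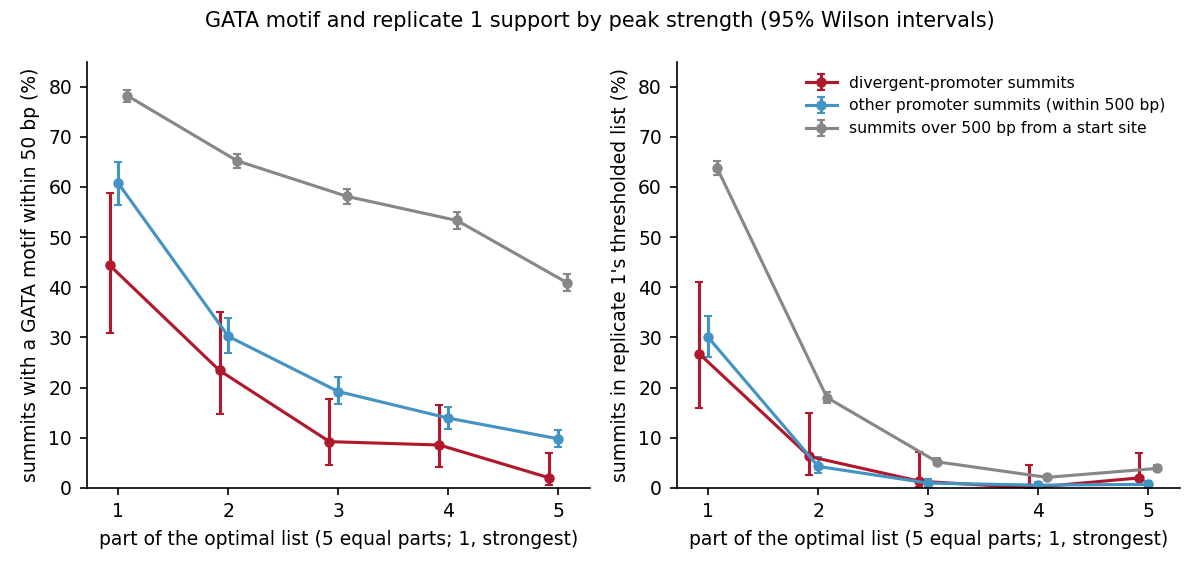
Share of summits with a GATA motif within 50 bp (left) and share in replicate 1's thresholded list (right) in 5 equal parts of the optimal list, ranked on the authors' signal score, for 3 groups of summits, with 95% Wilson intervals. At divergent promoters the motif share is 44.4% in the strongest part and 1.98% in the weakest, and replicate 1's share is 26.7% and 1.98%.

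The 2 replicates supported these peaks very unequally. Replicate 1's own thresholded list had 4287 peaks and replicate 2's had 26314 on the chromosomes used. Of the 368 peaks, 19 overlapped a peak of replicate 1's list by at least 1 base (5.16%, 3.33 to 7.92), beside 17.0% of the whole optimal list. Replicate 2's list held 313 (85.1%, 81.1 to 88.3), beside 82.5% of the whole list. Both lists held the same 19 (5.16%), beside 16.3% of the whole list and 4.67% of other promoter peaks. Replicate 2's list alone held 294, and neither list held 55. The like shares of the whole list were not taken, so these counts do not set the peaks apart. The replicates' lists come from a later run than the optimal list. In that run's pooled list 93.6% of divergent-promoter peaks were in replicate 2's list. The 19 summits belong to 16 pairs, 3 of which had 2 summits among them. The conservative list held 61 (16.6%, 13.1 to 20.7), beside 38.2% of the whole list. Other promoter peaks had like shares: 4.77% for replicate 1 (difference 0.398 points, -1.56 to 3.22), 84.3% for replicate 2 (0.80 points, -3.35 to 4.28) and 16.0% in the conservative list (0.609 points, -3.03 to 4.89). Peaks farther from start sites were in replicate 1's list in 19.8% of cases, a difference of -14.7 points (-16.6 to -11.8).

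Each replicate's relaxed list holds 300000 lines. Replicate 1's relaxed list had an overlapping peak at 150 of the 368 (40.8%, 35.9 to 45.9), against 44.0% of other promoter peaks and 78.5% of those farther away. Replicate 2's had one at all 368, and also at 99.9% of other promoter peaks and 99.8% of those farther away. Over the 150 found, the median rank of the overlapping peak in replicate 1 was 50476 (quartiles 10249 and 145691). Over all 368, the median rank in replicate 2 was 12734 (quartiles 7481 and 20174). Taken alone, replicate 1's list had 18 divergent-promoter summits (0.420% of its peaks, 0.266 to 0.663) and replicate 2's had 541 (2.06%, 1.89 to 2.23). In each list the GATA motif was rarer at divergent than at other promoters: 27.8% against 63.3% in replicate 1's (difference -52.1 to -11.4 points) and 11.8% against 17.8% in replicate 2's (-8.60 to -2.77).

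Peaks with a GATA motif were better supported. Among divergent-promoter peaks, 15.7% of those with the motif (8 of 51) and 3.47% of those without (11 of 317) were in replicate 1's list, a difference of 12.2 points (4.25 to 24.6). Replicate 2's list held 98.0% and 83.0%, and the conservative list 45.1% and 12%, a difference of 33.1 points (19.7 to 47.0). At other promoters the corresponding shares were 15.2% and 1.83% for replicate 1 and 38.8% and 9.51% in the conservative list. The optimal list was made from both replicates, so its ranks share reads with these lists.

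**Figure D4:**
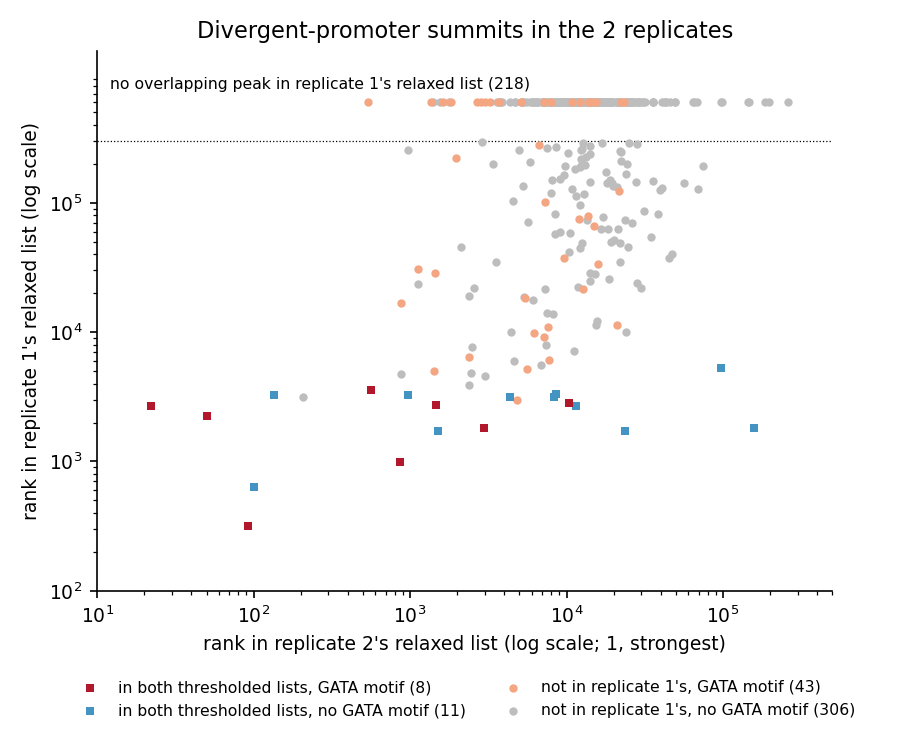
Rank of the peak overlapping each divergent-promoter summit in replicate 2's relaxed list (x axis, log scale) and in replicate 1's (y axis, log scale), with squares for the 19 summits in both thresholded lists, circles for the rest, and summits without an overlapping replicate 1 peak above the dotted line. All 368 have a replicate 2 peak, beside 99.9% of other promoter peaks, and 150 (40.8%) a replicate 1 peak, beside 44.0%.

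Of the 10 pairs with the strongest peaks, the leading one was Ttc13/Arv1. Arv1 encodes a protein of the endoplasmic reticulum involved in sterol transport. The peak (chr8:124722106-124722465) ranked 56 with a signal score of 214 and lay in an exon on the Arv1 side, 160 bp from the nearest start site. In replicate 1's list of 4287 the overlapping peak ranked 2451, and in replicate 2's of 26314 it ranked 23, so it was near the top in replicate 2 and past the middle in replicate 1.

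Abcg5/Abcg8 encode the 2 subunits of the transporter that secretes sterols into bile and back into the gut lumen, and are a textbook divergent pair. The peak (chr17:84682895-84683170) ranked 99 with a score of 192, between start sites 110 bp apart. It had 3 GATA motifs within 50 bp, the nearest centred 0.5 bp from the summit, in a window of 44.6% GC. Replicate 1 ranked it 402 (score 38.5) and replicate 2 ranked it 88 (score 152). Replicate 1's list ranked no other divergent-promoter peak higher.

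Npc2/Isca2 combines a lysosomal cholesterol-binding protein with a mitochondrial factor of iron-sulphur cluster assembly. It had 2 summits in 1 peak (chr12:84772855-84773330). The stronger, of rank 114 and score 186, lay in an exon of Npc2 20.5 bp from TTATCT, and the weaker had rank 20303 and no motif within 50 bp. The stronger overlapped the peak that replicate 1 ranked 1601 and replicate 2 ranked 51.

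Several strong peaks had no GATA motif within 50 bp. Tnfaip1/Ift20, whose plus-strand gene Ift20 encodes an intraflagellar transport protein, had rank 129 (score 183), and ranked 499 in replicate 1 and 125 in replicate 2. Its window had 62.4% GC and an SP core within 50 bp of the summit. Cryzl1/Itsn1, with the endocytic scaffold gene Itsn1, had rank 238 (71.3% GC, an SP core) and ranked 3002 in replicate 1 and 140 in replicate 2. Trip12/Fbxo36, with the ubiquitin ligase gene Trip12, had rank 358, was absent from replicate 1's thresholded list and ranked 198 in replicate 2's. Sbds/Tyw1, with the ribosome maturation gene Sbds and the tRNA-modifying enzyme gene Tyw1, had rank 1120 with an NRF1 core, and ranked 2970 and 1022 in replicates 1 and 2. Fbxo24/Lrch4 had rank 1243 with CCAAT, was absent from replicate 1's thresholded list and ranked 781 in replicate 2's. These 5 peaks were in the conservative list, and all 5 were in replicate 2's own list.

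Cops2/Galk2 and Hnrnph3/Pbld2 completed the strongest 10, with the motif at each. Cops2 encodes a subunit of the COP9 signalosome and Galk2 a sugar kinase. Their peak ranked 731 with AGATAA centred 18.5 bp from the summit, and it ranked 1044 in replicate 1 and 871 in replicate 2. Hnrnph3 encodes an RNA-binding protein. Its peak ranked 841, lay between start sites 618 bp apart with TTATCT 27.5 bp away, and ranked 2966 in replicate 1 and 541 in replicate 2.

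In 3 further pairs a peak was in both replicates' lists and had a GATA motif. Zwilch/Rpl4, of a kinetochore protein and a protein of the large ribosomal subunit, had rank 1887 and the lowest GC content of all 368 windows, 31.7%, with 2 motifs within 50 bp. It ranked 1942 in replicate 1 and 2894 in replicate 2, and replicate 2's list is the longer of the 2. The motifs lay near the summit of the optimal list, and replicate 1's own summit had none within 50 bp. A730061H03Rik/Dcaf11, with a substrate receptor gene of a cullin ubiquitin ligase, had rank 2133, and 3012 in replicate 1 and 1438 in replicate 2. Slc30a7/Extl2, with a zinc transporter gene of the Golgi, had rank 6895, and 3130 in replicate 1 and 9903 in replicate 2.

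Other textbook divergent pairs were split. A summit stood at Mrps12/Sars2, of a mitochondrial ribosomal protein and the mitochondrial seryl-tRNA synthetase (rank 12656, a GATA motif 8.5 bp from the summit, replicate 2's list only). It stood at Brca1/Nbr1, of a DNA repair protein and an autophagy receptor (rank 17139, no GATA motif within 50 bp of the summit). Hadha/Hadhb encode the subunits of the mitochondrial trifunctional protein of fatty acid oxidation, and their peak of rank 21415 was in neither replicate's thresholded list. Mcm4/Prkdc, of a helicase subunit of DNA replication and a DNA repair kinase, had rank 22590. No summit was found at Hspd1/Hspe1 of the mitochondrial chaperonins (start sites 108 bp apart), at Atm/Npat (307 bp), at Hars/Hars2 of the histidyl-tRNA synthetases (26 bp), at Tap1/Psmb9 of antigen presentation (38 bp) or at Sirt3/Psmd13 (99 bp).

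Among gene groups, cytosolic ribosomal proteins and hepatocyte genes had the highest shares and replication-dependent histones the lowest among the 10 groups with at least 6 genes in divergent pairs, set against 676 of 1972 gene symbols in divergent pairs (34.3%, 32.2 to 36.4). These counts describe the groups and were not tested. Of 13 cytosolic ribosomal protein genes in such pairs, 8 had a summit in the pair (61.5%, 35.5 to 82.3), led by Rpl4, Rps27 (rank 6201, with a GATA motif) and Rpl9 (rank 6551). Of 6 hepatocyte genes, 4 did (66.7%), with a wide interval that included the 34.3% of all paired genes. These 4 were Abcg5, Abcg8, Hadha and Hadhb, which make up only 2 pairs. The Hadha/Hadhb peak, at rank 21415, was in neither replicate's thresholded list. The 1 endothelial gene in a divergent pair had no summit. Of 27 replication-dependent histone genes, 2 did (7.41%, 2.06 to 23.4), the pair Hist1h2ah/Hist1h2bk at rank 14401. Histone genes have near-identical copies, so their value is uncertain.

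The other groups lay nearer to the share of all paired genes. For Mediator, RNA polymerases and general transcription factors 12 of 26 genes had a summit, led by the TFIIH subunit gene Gtf2h5 at rank 1768 with a GATA motif, Polr1c at 5421 and Gtf2h3 at 7924. DNA repair and replication genes had 16 of 37, led by Xrcc6 of DNA end joining at rank 1827, the replicative helicase gene Mcm7 at 7350 and Xrcc4 at 8408. Respiratory chain genes, a group that also took in assembly factors, had 11 of 25, led by the assembly factor gene Cox11 at rank 5988, Ndufa7 at 8427 and Ndufb3 at 11214. Aminoacyl-tRNA synthetases had 4 of 9, led by Sars2, Wars at rank 15457 and Rars2 at 15609. Mitochondrial ribosomal proteins had 8 of 25, led by Mrps18b at rank 2457, Mrps18c at 5021 and Mrpl10 at 9618, each with a GATA motif. Krueppel-type zinc finger genes had 8 of 24, led by Zfp473 at rank 5799, Zfp91 at 6138 and Zfp142 at 12328. Proteasome genes had 2 of 9, Psmb1 at rank 9293 and Psmc2 at 14023. Both partners of a pair are counted when both are in a group, and a summit between 2 genes assigns the peak to neither.

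**Figure D5:**
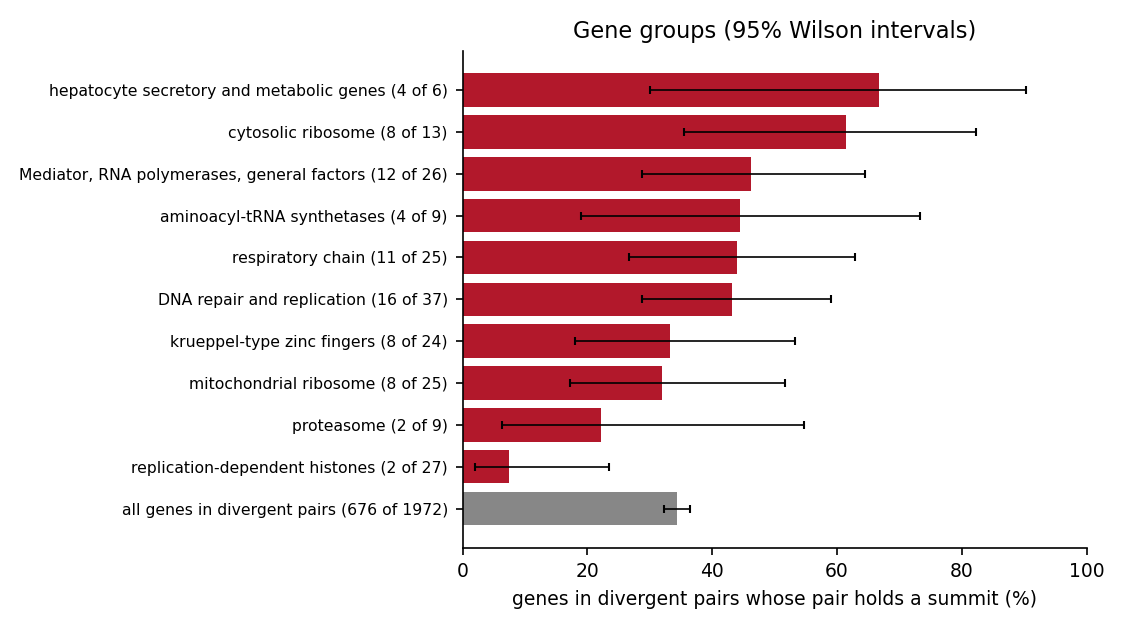
Share of the genes of each group that have a divergent partner and a GATA4 summit in the pair (x axis, percent; lines are 95% Wilson intervals; the grey bar at the bottom is all 1972 gene symbols in divergent pairs, 34.3%). Cytosolic ribosomal protein genes stand at 61.5% and replication-dependent histones at 7.41%.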

How the data were processed

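The data are GATA4 ChIP-seq peak lists of 2 samples in 1 group, of which 7 lists on mm10 were used, sorted by the README text deposited with the samples. The aligner and peak caller of these lists are not given in the sources read here. From an earlier run the authors deposited a relaxed list per replicate (300000 lines each), an optimal and a conservative list, and from a later run each replicate's thresholded list and a pooled one. The deposited signal score has no unit and was used only for ranks within a list. The deposited irreproducible discovery rate (IDR) score is higher for a lower IDR, and runs between 537 and 1000 in the optimal list. Replicates 1 and 2 share donor and tissue identifiers. Read depth is unknown, and mm9, ranked and other lists were not used.

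Of 24083 lines of the optimal list, the 24050 on chromosomes 1 to 19 and X were analysed. Start sites came from GENCODE mouse release 21 basic protein-coding genes and sequence from RefSeq's GRCm38.p6. Other promoter summits lay within 500 bp of a start site. Motifs were read within 50 bp of summits, and overlap meant 1 shared base. The peak with the nearest summit was taken where several overlapped. Shares have Wilson and differences Newcombe intervals at the 95% level. With 1 group no test between groups was possible. Members and lists were chosen with earlier results of these data known. Pairs named are the 10 strongest, those in both replicates' lists with a GATA motif, textbook pairs, and the 3 strongest genes of each group, though a few such items are left out of the text. The pattern for cytosolic ribosomal proteins was corrected after its members were seen, to leave out S6 kinase genes. Code (Python 3.11.15, numpy 2.4.6, pandas 2.3.3, pysam 0.24.0) was tested on simulated data. Alternatives were other distances, annotations, lists, thresholds, motifs, overlaps and ranks.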

Additional observations from a re-analysis of the deposited data

How the results depend on the processing

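The comparison with other promoters was the steadier result and the counts the less steady. The difference in GATA motif share was below 0 in all 15 alternatives, but its interval included 0 below 50% GC (-10.1 points), at 60 to 70% GC (-3.61) and from 70% GC up (-3.31). The difference in replicate 1 support had an interval that included 0 in all 13 alternatives. With summits strictly between the start sites, 210 summits and 20.6% of pairs were left. At an IDR of at most 0.01 there were 231 summits in 21.8% of pairs, with a GATA motif at 19.9%, and 94.8% were in replicate 2's list and 24.2% in the conservative list. The conservative list gave 59 summits in 5.46% of pairs, with the motif at 37.3%, replicate 1 support of 30.5%, replicate 2 support of 98.3% and a median rank at 45.3% of the list, against 59.9% for the optimal list. AGATAA alone stood at 5.71%. Replicate 2 support was 93.6% in the later pooled list, 77.4% where 50% of both peaks had to be shared and 80.7% with summits within 100 bp, and replicate 1 support was 3.26% under the 50% rule. Ranking by IDR score put the median at 56.0%, but 52.5% of the list shared the largest score of 1000 and could not be ordered by it. Using either replicate's own list alone, the count ranged from 18 to 541, the share of pairs from 1.59% to 47.1%, the GATA share from 11.8% to 27.8%, the median rank from 60.9% to 69.0% of the list and the GATA difference from -35.5 to -5.93 points. The cause of these changes was not tested, and stricter lists also hold fewer peaks. No paired analysis was possible because the series holds 1 group. Depth is unknown, so a pair without a summit may hold binding below these thresholds.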

Other observations

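A further 5 pairs had a peak in both replicates' lists and no GATA motif within 50 bp, and are named here after their values were seen. Alg2/Sec61b, of an enzyme of N-glycan assembly and a subunit of the protein translocation channel of the endoplasmic reticulum, had 2 summits (ranks 1954 and 14177), and both overlapped the peak of rank 1502 in replicate 1. Nvl/Cnih4, with a gene of ribosome assembly, had rank 3549, and 3115 in replicate 1 and 3883 in replicate 2. Btf3l4/Txndc12, with a thioredoxin-like protein of the endoplasmic reticulum, had rank 5358, and 3467 in replicate 1 and 8775 in replicate 2. Supt7l/Slc4a1ap, with a subunit of a histone acetyltransferase complex, had rank 6445 in a window of 47.5% GC, and 2949 in replicate 1 and 8498 in replicate 2. Tmem138/Cyb561a3, with a ciliary protein and a cytochrome of the lysosome, had rank 6939, and 2838 in replicate 1 and 9531 in replicate 2.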
